A study of Bos taurus with 2 samples.

Results

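The 8 genes described here encode accessory parts of the sperm tail: ODF1, ODF2, ODF3, AKAP3, AKAP4, CABYR, ROPN1L and SMCP. The choice was made by symbol, with earlier results of these data known. They are 8 of 24616 listed Ensembl genes, and all 8 had at least 10 counts over both libraries, the minimum by which 18025 genes were called measured. RNA sequencing was done on seminiferous tubules, the testis tubes that produce sperm, from cattle (Bos taurus). One library was labelled with an age of 9 months and 1 with an age of 3 months. Their sources are called the older and the younger calf below. Pieces of tubule were cut from removed testes and frozen. The labels used here name no breed, treatment, pooling or number of animals for either library.

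Around the microtubule core of the mammalian sperm tail, the axoneme, lie structures that motile cilia lack. Stiff outer dense fibres run along the midpiece and most of the principal piece, and a fibrous sheath replaces the mitochondria as the outer layer of the principal piece. The sheath is built largely of A-kinase anchoring proteins, which hold protein kinase A (the kinase switched on by cyclic AMP), and it also carries glycolytic enzymes. In the midpiece the mitochondria are wrapped around the outer dense fibres and embedded in a cysteine-rich capsule. Most of these proteins are made in spermatids, the cells that follow meiosis. ODF1, ODF2 and ODF3 are named for the outer dense fibres, while AKAP3, AKAP4, CABYR and ROPN1L belong to the fibrous sheath. SMCP belongs to the capsule around the mitochondria and so to neither structure.

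The library from the older calf held 29782234 counts, that from the younger calf 37600534. Markers of meiotic prophase summed to 707 CPM in the 9-month tubules, against 45.5 CPM in the 3-month tubules, where CPM are counts relative to a library size scaled with edgeR's TMM (trimmed mean of M values). Round spermatid markers summed to 1395 and 4.88 CPM, and elongating spermatid markers to 2475 and 0.933 CPM, in the older and the younger calf. All 13 meiotic, 13 round spermatid and 11 elongating spermatid markers measured were higher by 2-fold or more in the 9-month tubules. SPACA3, SPACA4 and SPATA3 were at 0 counts in the 3-month tubules. Markers of Sertoli cells, the nurse cells inside the tubule, summed to 2287 and 9423 CPM in the same order, and 8 of 14 were at least 2-fold lower and 3 higher. Markers of Leydig cells, which lie outside the tubule, summed to 2775 and 17663 CPM, with 6 of 7 lower and 1 higher, and INSL3, their hormone gene, was at 1974 and 6107 CPM. The Leydig sum exceeded the Sertoli sum in both libraries. Both thus held RNA from outside the tubule, and the names 9-month tubules and 3-month tubules follow the labelled tissue only. The summed levels in the older and the younger calf were 760 and 512 CPM for peritubular myoid, 121 and 182 CPM for endothelial, 245 and 562 CPM for leukocyte, 1.72 and 3.02 CPM for red blood cell, and 126 and 42.3 CPM for rete and epididymis markers. The defensin gene DEFB119 made up 115 and 1.99 CPM of that last sum, and without it, a sum chosen after its value was seen, the level was 10.3 CPM in the 9-month tubules, against 40.3 CPM in the 3-month tubules. HBB, a haemoglobin gene, was at 0 counts in the 9-month tubules. In bulk tissue fewer cells of a type and less RNA per cell cannot be told apart, and the part of this difference in cell markers in the values below was not tested.

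The comparison asked how expression differs between the older and the younger calf. All 8 genes were far higher in the 9-month tubules, and all 8 were at least 16-fold higher. The smallest fold was that of ODF2, at 24.3, and ODF1 differed by at least 2756-fold. Together the 8 genes had 100351 counts in the 9-month tubules, against 1769 in the 3-month tubules, which is 0.337% of all counts (95% exact binomial interval 0.335 to 0.339) against 0.00470% (0.00449 to 0.00493). Among all measured genes the shares higher by at least 2-fold and 16-fold were 28.3% and 7.15%, and 8 of the 8 genes passed each fold. As the 8 genes were chosen with earlier results of these data known, this count is a description and not a test. The share lower by at least 2-fold was 22.9%, and 0 of the 8 genes were among them. Under plain library totals these shares of all measured genes were 36.5% for 2-fold higher and 14.9% for 2-fold lower. The 8 genes had a median log2 ratio of 8.19, or 7.87 with ODF1 and ODF3, which were at 0 counts in the 3-month tubules, set at their bound. The median of all measured genes was 0.02. With 1 library per age there is no replicate check and no test, so each value compares these libraries and not the ages in general. The intervals cover counting error only, and PCR copies of a molecule may make even those too narrow.

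**Figure D1:**
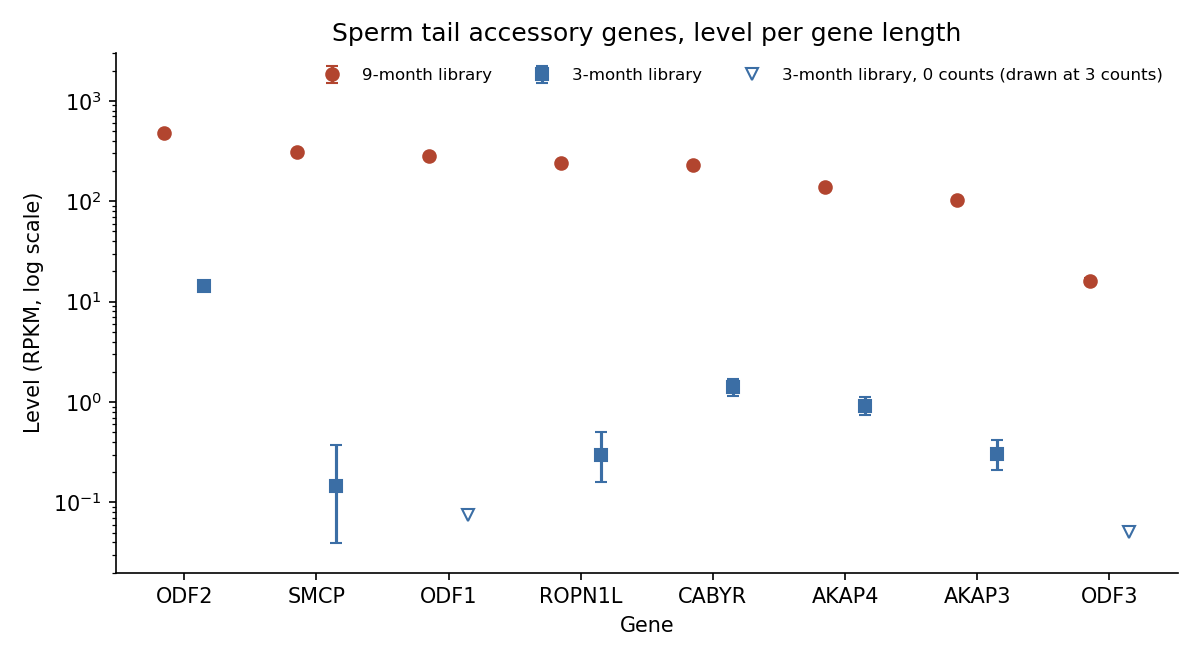
Level of each gene in RPKM (counts per kilobase of gene, relative to the library total, log axis) in the 9-month library (circles) and the 3-month library (squares), with 95% exact Poisson intervals, which are smaller than the symbols for most points. Open triangles mark the genes with 0 counts in the 3-month tubules, drawn at the level of 3 counts. All 8 genes stand higher in the 9-month tubules, and ODF2 is the highest gene in both.

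Of the outer dense fibre genes, ODF1 and ODF3 had counts in the 9-month tubules alone, while ODF2 was abundant there and already present in the 3-month tubules. ODF1 (ENSBTAG00000003445) encodes a main structural protein of the fibres, related to small heat shock proteins. It had 8961 counts in the 9-month tubules, or 284 RPKM, and 0 in the 3-month tubules. A count of 0 allows up to 3 counts, close to the one-sided 95% Poisson limit, which is 0.0753 RPKM for this gene, so that ODF1 was at least 2756-fold higher. With the upper end of the two-sided 95% interval, 3.69 counts, the bound would be 2242-fold. In the ARS-UCD2.0 annotation of RefSeq, another build than that of the tables, ODF1 and SMCP each overlap a long non-coding RNA gene, and without a stated strand setting reads of the pair cannot be told apart. ODF1 ranked 1 of 18025 measured genes by log2 ratio, a place that for a gene at 0 counts rests on the prior count of 2 added to each library.

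ODF3 (ENSBTAG00000001730), also known as CIMAP1A, had 747 counts, or 16.05 RPKM, in the 9-month tubules, against 0 in the 3-month tubules. It was at least 230-fold higher. ODF3 was the lowest of the 8 genes in the 9-month tubules, at a ratio of 0.0565 (0.0523 to 0.0609) to ODF1 by RPKM. In the same annotation ODF3 overlaps a gene model named NBAS, the symbol of a gene of vesicle transport. The counted gene of that name, matched by symbol alone, had 2083 counts in the 9-month tubules, against 1345 in the 3-month tubules, where ODF3 had none. Whether it lies at the same locus, and whether the 2 genes also overlap in the build of the tables, was not checked.

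ODF2 (ENSBTAG00000030567) encodes a fibre protein that is also found at the appendages of the mother centriole in somatic cells, where it is called cenexin. It had 39702 counts in the 9-month tubules, or 477 RPKM (95% exact Poisson interval 473 to 482), and 1507 in the 3-month tubules, or 14.3 RPKM (13.6 to 15.1). The difference was 24.3-fold (95% exact interval 23.1 to 25.6), and this interval overlapped with that of none of the other 5 genes that had counts in the 3-month tubules. By RPKM it ranked 126 of the measured genes in the 9-month tubules, against 5561 in the 3-month tubules. The counts are per gene, so that the sperm tail and centriole isoforms of ODF2 cannot be told apart.

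The related gene ODF2L had 25.3 RPKM in the 9-month tubules, against 22.0 RPKM in the 3-month tubules. ODF2 thus stood 18.9-fold (17.9 to 19.96) above ODF2L in the 9-month tubules. In the 3-month library it stood below ODF2L, at a ratio of 0.653 (0.607 to 0.702). The order of these related genes differed between the libraries.

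The 4 fibrous sheath genes had counts in both libraries and were higher in the 9-month tubules by 112-fold to 596-fold. Their summed level was 1268 CPM in the 9-month tubules, against 8.03 CPM in the 3-month tubules, a fold of 158 (140 to 179). AKAP4 (ENSBTAG00000016399), the major scaffold protein of the sheath, had 11874 counts and 140 RPKM in the 9-month tubules, against 98 counts and 0.915 RPKM in the 3-month tubules. It was 112-fold higher (91.7 to 138). AKAP3 (ENSBTAG00000001020), a second scaffold that anchors protein kinase A, had 9254 counts and 103 RPKM in the 9-month tubules, against 34 counts and 0.301 RPKM in the 3-month tubules. It was 251-fold higher (180 to 363).

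The interval of AKAP3 lay above that of AKAP4, so that the anchoring genes differed in fold by more than counting error. Their ratio shifted accordingly. AKAP4 stood 1.35-fold (1.32 to 1.39) above AKAP3 by RPKM in the 9-month tubules and 3.04-fold (2.04 to 4.64) above it in the 3-month tubules.

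CABYR (ENSBTAG00000005638), a calcium-binding sheath protein that is phosphorylated on tyrosine as human sperm become competent to fertilise, had 14627 counts and 228 RPKM in the 9-month tubules. In the 3-month library it had 113 counts and 1.40 RPKM, the second highest level of the 8 genes there. It was 119-fold higher (99.3 to 145), with an interval that overlapped that of AKAP4. The ratio of CABYR to AKAP4 by RPKM was 1.63 (1.59 to 1.67) in the 9-month tubules and 1.53 (1.16 to 2.02) in the 3-month tubules. The 3-month interval contains the 9-month value, so no change of their ratio was detectable at this depth.

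ROPN1L (ENSBTAG00000003539), a relative of ropporin with a docking domain like that of the regulatory subunits of protein kinase A, is known to bind AKAP3. It had 8400 counts and 242 RPKM in the 9-month tubules, against 13 counts and 0.297 RPKM in the 3-month tubules. It was 596-fold higher (348 to 1120). ROPN1, ropporin itself, had 241 RPKM in the 9-month tubules, against 0.260 RPKM in the 3-month tubules. The ratio of ROPN1L to ROPN1 by RPKM was 1.00 (0.973 to 1.04) in the 9-month tubules and 1.14 (0.463 to 2.91) in the 3-month tubules, so a difference between them was not detectable in either.

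SMCP (ENSBTAG00000005437), the cysteine-rich protein of the mitochondrial capsule, is encoded by the shortest of the 8 genes, at 736 bases in the tables. It had 6786 counts and 310 RPKM in the 9-month tubules, against 4 counts and 0.145 RPKM (0.0394 to 0.370) in the 3-month tubules. It was 1565-fold higher, with a wide interval of 611 to 5747 because of the 4 counts. After ODF2 it had the highest level per length of the 8 genes in the 9-month tubules.

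**Figure D2:**
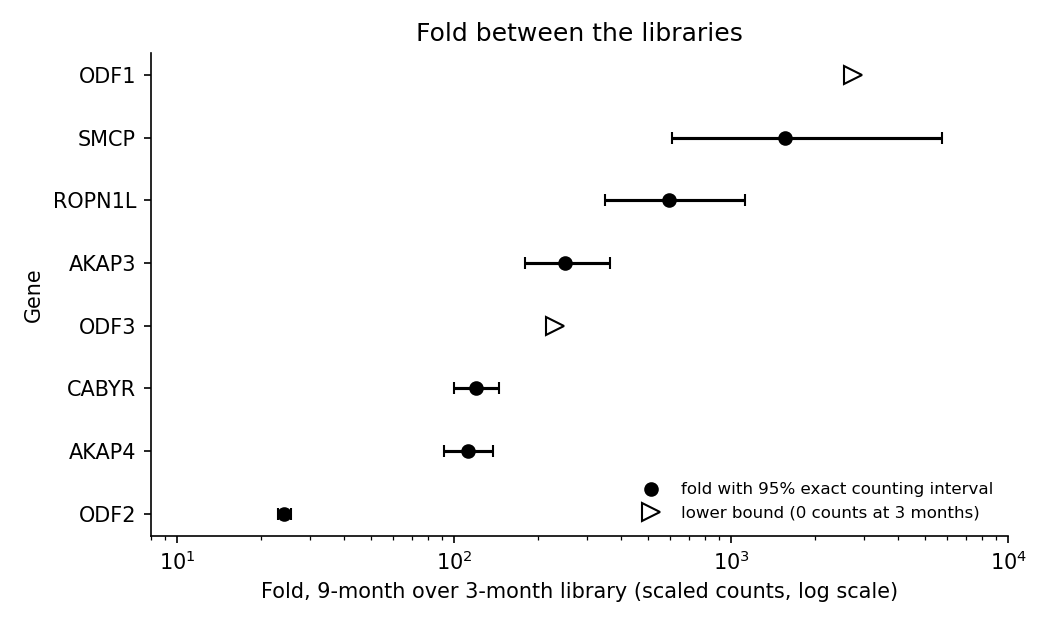
Fold of each gene, 9-month over 3-month library, from TMM-scaled counts on a log axis, with 95% exact counting intervals. Open triangles are lower bounds for ODF1 (at least 2756) and ODF3 (at least 230), and ODF2 at 24.3 stands apart from the other genes at the low end.

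The order of the genes by level differed between the libraries. In the 9-month library it ran, by RPKM, from ODF2 through SMCP, ODF1, ROPN1L, CABYR, AKAP4 and AKAP3 to ODF3. Each neighbour in this order differed by more than counting error, the closest being ROPN1L over CABYR at a ratio of 1.06 (1.03 to 1.09) and SMCP over ODF1 at 1.09 (1.06 to 1.12). Whether such small steps exceed the difference between animals was not tested. In the 3-month library the order ran from ODF2 through CABYR, AKAP4, AKAP3 and ROPN1L to SMCP, with ODF1 and ODF3 at 0. There AKAP3 and ROPN1L did not differ beyond counting error, at a ratio of 1.01 (0.521 to 2.09), and neither did ROPN1L and SMCP, at 2.05 (0.634 to 8.64).

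The make-up of the summed level differed as well. ODF2 made up 26.5% of the summed RPKM of the 8 genes in the 9-month tubules, against 82.4% in the 3-month tubules. SMCP made up 17.2% and 0.830%, and ROPN1L 13.4% and 1.71%, in the older and the younger calf. CABYR and AKAP4 kept closer shares, with 12.7% and 8.03% for CABYR and 7.77% and 5.26% for AKAP4 in the same order. Because ODF2 held 1507 of the 1769 counts that the 8 genes had in the 3-month library, it set the fold of the sum. The sum of all 8 was 2881 CPM in the 9-month tubules, against 55.03 CPM in the 3-month tubules, a fold of 52.3 (49.9 to 54.9). The 7 genes without ODF2 summed to 1741 and 8.15 CPM, a fold of 214 (189 to 242).

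**Figure D3:**
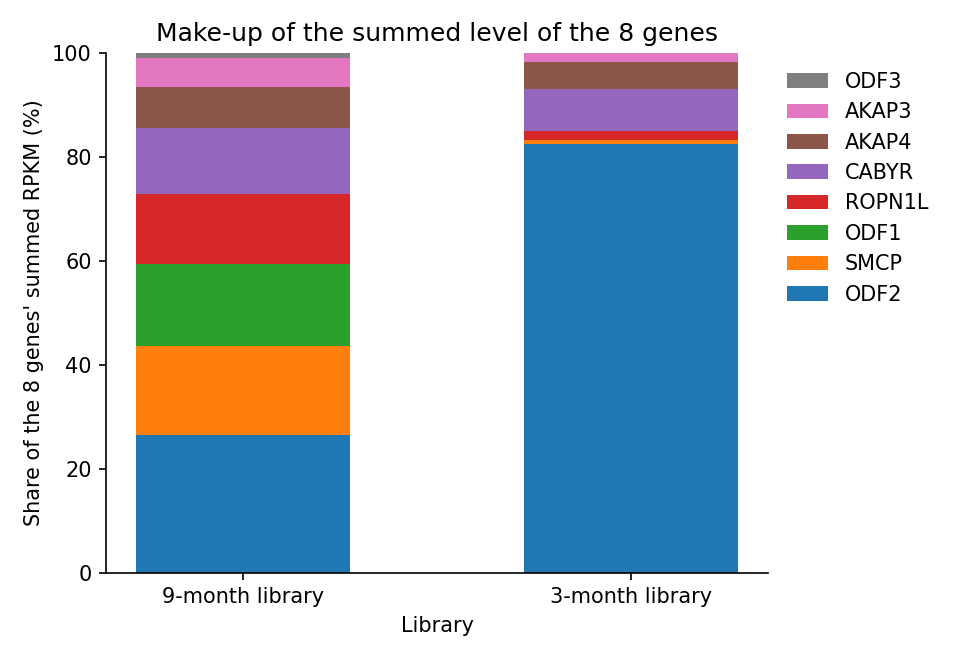
Share of each gene in the summed RPKM of the 8 genes, in percent, in the 9-month library (left) and the 3-month library (right). ODF2 makes up 26.5% of the 9-month bar and 82.4% of the 3-month bar, while ODF1 and ODF3 are absent from the 3-month bar.

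Set against the germ cell markers, the genes differed in how much of the 9-month level was already present in the 3-month tubules. The CPM in the 3-month tubules was 4.11% of that in the 9-month tubules for ODF2, 0.894% for AKAP4, 0.837% for CABYR and 0.398% for AKAP3. It was 0.168% for ROPN1L and 0.0639% for SMCP. For ODF1 it was at most 0.0363% and for ODF3 at most 0.435%, with 3 counts in place of 0. The same share was 6.43% for the summed markers of meiotic prophase, 0.350% for those of round spermatids and 0.0377% for those of elongating spermatids. By this measure AKAP4, CABYR and AKAP3 lay nearest to the summed round spermatid markers, and SMCP, and ODF1 at its bound, to the summed elongating spermatid markers. ROPN1L lay between these values. ODF2 lay nearest to the meiotic markers, but alone it was at 46.9 CPM in the 3-month tubules, against 45.5 CPM for their sum. As ODF2 is also found in somatic cells, its share does not place it at a germ cell stage, and the source of its counts was not tested. The bound for ODF3 does not place it. Single markers spread widely, between 0.677% and 18.4% for meiotic prophase and up to 1.56% for round and 0.414% for elongating spermatids. PRM1, which encodes a protamine that packs sperm DNA, had 41274 counts in the 9-month tubules, against 13 in the 3-month tubules. ROPN1L also had 13 counts in the 3-month tubules.

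**Figure D4:**
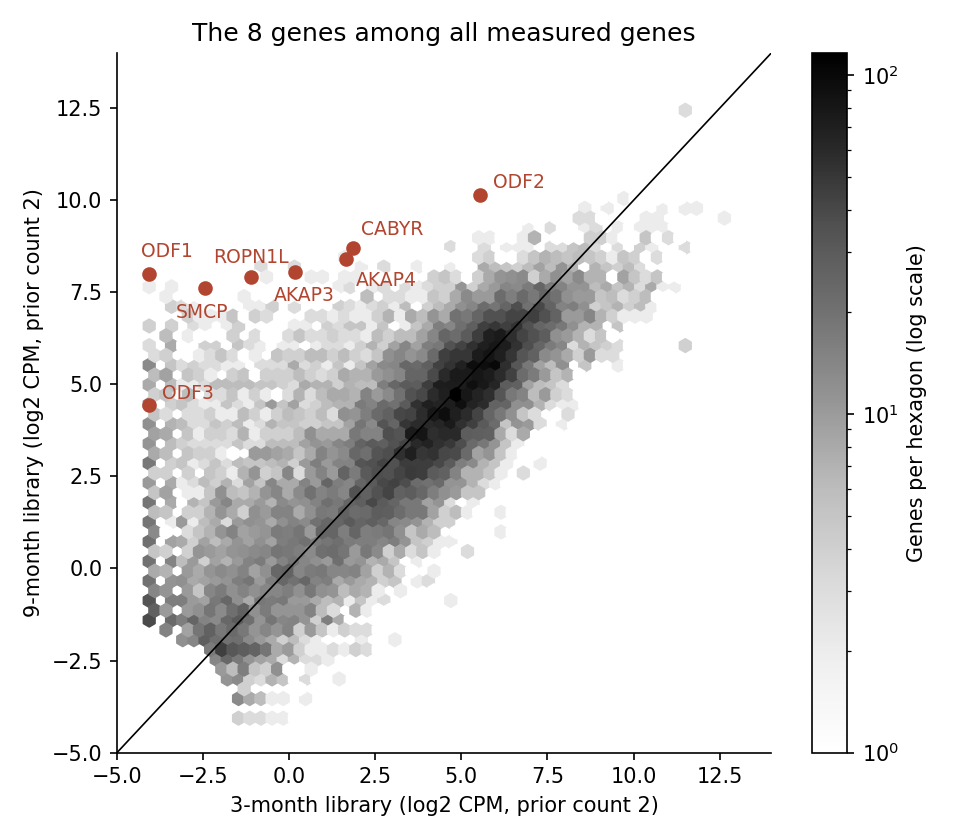
All 18025 measured genes by level in the 9-month library (vertical) and the 3-month library (horizontal), in log2 CPM with a prior count of 2, shaded by the number of genes per hexagon, with the line of equal level. The 8 named genes lie far above the line, ODF1 and ODF3 at the left edge where the 3-month count is 0, and ODF2 farthest to the right.

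The genes whose pair of levels lay nearest to that of each member, by Euclidean distance in log2 CPM over both libraries, included other sperm genes. For AKAP4 the nearest was LDHC, the germ cell lactate dehydrogenase, at a distance of 0.10, followed by FSIP2, which interacts with AKAP4, at 0.29. For CABYR the nearest was AKAP4, at 0.36. The nearest to AKAP3 was IZUMO4 at 0.07, to ROPN1L LRRC23 at 0.20, and to SMCP MROH2B at 0.26. The nearest to ODF3 was DEFB122A, at 0.07, with 784 counts in the 9-month tubules, against 0 in the 3-month tubules. The nearest to ODF2, AP2B1, lay farther off, at 0.80, with 789 CPM in the 9-month tubules, against 70.8 CPM in the 3-month tubules. With 2 libraries such likeness rests on 2 values per gene.

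Other genes of the same structures, or listed with them, were mostly higher in the 9-month tubules too. Of 11 further genes measured in the outer dense fibre list, which is not limited to fibre proteins, 9 were higher by 2-fold or more and 0 lower. The other 2 were within 2-fold, and the median log2 ratio was 5.18. OAZ3, a testis antizyme, had 7661 counts in the 9-month tubules, against 8 in the 3-month tubules, a fold of 884 (448 to 2048). SPAG5, a spindle protein known in rat to bind ODF1, was 8.25-fold higher (7.64 to 8.91) and MNS1, a protein of the axoneme, 3.77-fold (3.37 to 4.23). ODF2L was within 2-fold, at a ratio of 0.840 (0.780 to 0.905), as was KLC3, a kinesin light chain, at 0.971 (0.863 to 1.09).

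Of 10 further fibrous sheath genes measured, all 10 were higher by 2-fold or more, and the median log2 ratio was 5.94. LDHC was 108-fold (88.6 to 134), FSIP2 115-fold (92.4 to 144) and ROPN1 678-fold (369 to 1415) higher. SPA17, which like ROPN1L has a protein kinase A docking domain, stood at 332 RPKM in the 9-month tubules, against 21.4 RPKM in the 3-month tubules, and was 11.3-fold higher (10.4 to 12.4). It was the further sheath gene with the smallest log2 ratio, at 3.50.

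Of 15 genes of the mitochondrial sheath and annulus, 13 were higher and 0 lower. The other 2 were within 2-fold, and the median log2 ratio was 5.29. SLC26A8, an anion transporter of the annulus, was 220-fold higher (165 to 299) and VDAC3, a mitochondrial channel, 2.47-fold (2.37 to 2.57). The annulus septin SEPT4 was within 2-fold, at 0.847 (0.819 to 0.876). So was VDAC2, another channel, at 1.88 (1.79 to 1.97), though it passed 2-fold under plain-total and reference gene scaling.

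The somatic and general A-kinase anchoring genes, and the genes of protein kinase A and of the centriole, differed less, and in both directions. Of 14 somatic and general A-kinase anchoring genes, 5 were higher by 2-fold or more, 2 were lower and 7 differed less, and 0 were higher by 16-fold. Their median log2 ratio was -0.11, which became 0.33 with plain library totals and 0.23 with scaling to reference genes. AKAP12 stood at 869 CPM in the 9-month tubules, against 312 CPM in the 3-month tubules, and was 2.78-fold higher (2.72 to 2.85). AKAP11 was 3.36-fold higher (3.21 to 3.52), while AKAP9, a centrosomal anchor, was at a ratio of 0.635 (0.610 to 0.660). EZR, which encodes the membrane linker ezrin, was 2.44-fold lower (2.36 to 2.52), and AKAP5 was 2.46-fold lower (2.09 to 2.89). Under plain library totals and under reference gene scaling 0 of the 14 genes were lower by 2-fold.

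Of the 6 subunits of protein kinase A, 1 was higher, 2 were lower and 3 lay within 2-fold. PRKAR2A, a type II regulatory subunit, the type that A-kinase anchoring proteins chiefly bind, had 53.3 RPKM in the 9-month tubules, against 14.2 RPKM in the 3-month tubules, and was 2.73-fold higher (2.53 to 2.96). PRKAR2B, the other type II subunit, had 22.5 RPKM in the 9-month tubules, against 72.1 RPKM in the 3-month tubules, and was 4.39-fold lower (4.15 to 4.64). PRKAR1A was at a ratio of 1.21 (1.18 to 1.25). The catalytic subunit gene PRKACB was at the threshold, 2.004-fold lower (1.92 to 2.09), and lay within 2-fold under DESeq2, plain-total and reference gene scaling. Under plain library totals and under reference gene scaling 2 subunits were higher and 1 lower, and under upper-quartile scaling 1 was higher and 3 lower. The median log2 ratio of the subunits was -0.33 and became 0.12 with plain library totals and 0.02 with scaling to reference genes.

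Of 12 genes of the centriole appendages, where ODF2 also resides, 7 were higher by 2-fold or more and 3 lower. The other 2 differed less, and the median log2 ratio was 1.44. CNTRL, which encodes centriolin, was 5.01-fold higher (4.75 to 5.28), CEP164, of the distal appendages, 3.59-fold (3.30 to 3.91) and the microtubule depolymerase gene KIF2A 3.20-fold (3.02 to 3.39). CEP170 was at a ratio of 1.37 (1.29 to 1.45). The lower genes were CC2D2A, at 0.215 (0.184 to 0.252), NIN, at 0.292 (0.253 to 0.336), and CCDC120, at 0.378 (0.331 to 0.431). The log2 ratios of the 12 genes ended at 2.50, below the 4.60 of ODF2.

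**Figure D5:**
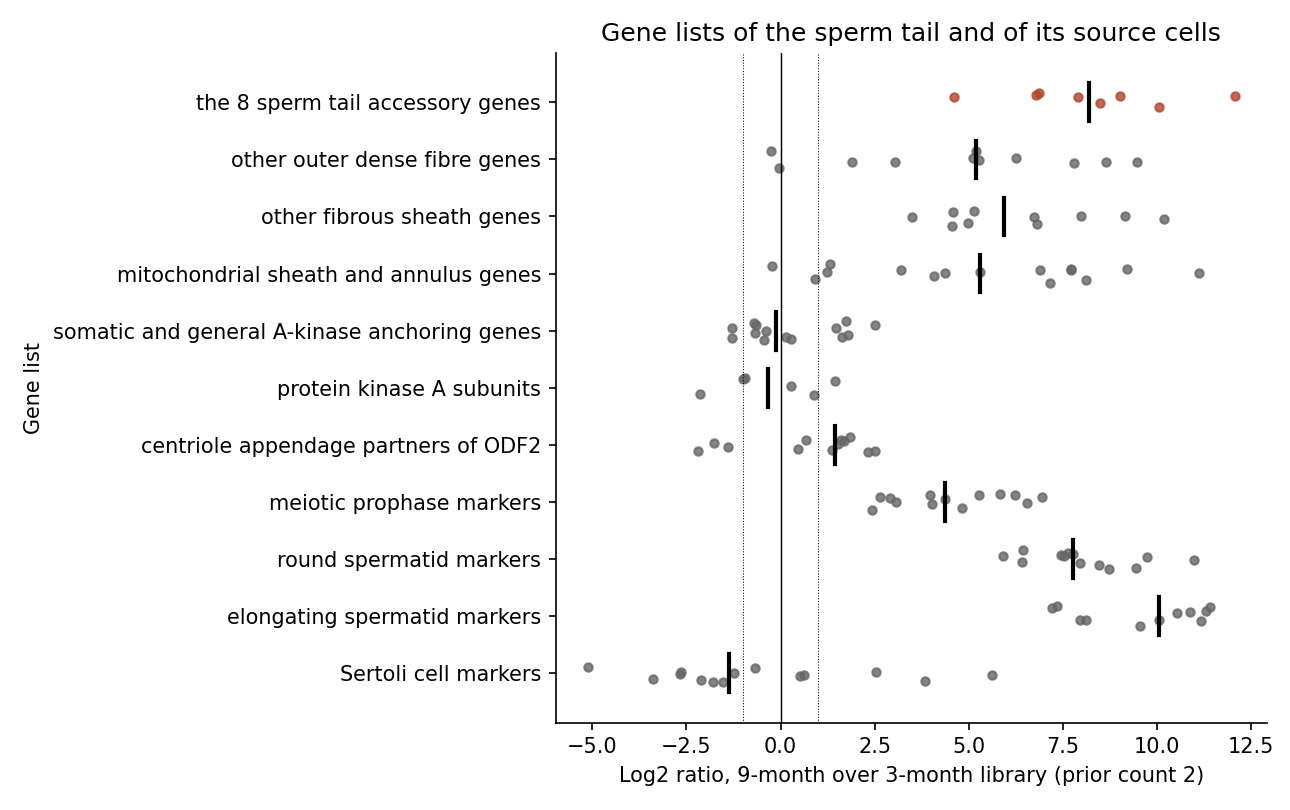
Log2 ratio, 9-month over 3-month library (prior count 2), of each measured gene (points) by list, with the list median as a bar, a solid line at equal level and dotted lines at 2-fold. The 8 genes lie between 4.60 and 12.1, while no gene of the A-kinase anchoring, protein kinase A and centriole lists exceeds 2.52.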

How the data were processed

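RNA of seminiferous tubules was sequenced in 1 library per age. Per the submitters' processing notes, Trimmomatic 0.33, STAR 2.4.0 and genome build UMD3.1 were used. The sources used here do not name the counting program, the annotation release or the strand setting. The deposited tables have no header. One deposited column holds raw counts per Ensembl gene and another the gene length. The last deposited column is RPKM, which equals the counts per kilobase of gene, relative to the table's own total, to within 0.000496%. No per-sample columns were left unused (0).

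From the counts, effective library sizes were computed by TMM in edgeR 4.0.16 under R 4.3.3, where the factor of the 9-month library was 1.17 and that of the 3-month library 0.855. The 3 counts used as a floor are 0.0933 CPM in the 3-month library. Log2 ratios carry a prior count of 2 and decide which genes are called 2-fold or 16-fold higher or lower. Each fold is a quotient of scaled counts, and its 95% interval is exact (conditional binomial, Clopper-Pearson). RPKM compared genes within a library, with the same kind of interval, and is not TMM-scaled, so that quotients of RPKM between libraries differ from the folds. Symbols are those of the tables. A listed symbol with more than 1 row (BEX2, HBA, ACTB, GAPDH, TBP) counts each row, and listed genes with no row were left out. Genes under 10 counts were left out of counts of genes and medians, but summed levels take every row. The calculation was tested on simulated Poisson counts, the model that the intervals assume. That checks the code and says nothing about differences between animals or PCR copies. The other tools were matplotlib 3.10.9, scipy 1.17.1, pandas 2.3.3, numpy 2.4.6 and Python 3.11.15.

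The 8 members and all gene lists were chosen with earlier results of these data known. The rule for named genes took all 8 members, up to 4 genes of each other list with the highest summed CPM, the 3 nearest genes to each member and the markers needed to describe the samples, and a few of these are printed. The gene nearest to ODF1 is not reported here. SPACA3, SPACA4, SPATA3, NBAS, KLC3, AKAP5, CC2D2A, NIN and CCDC120 were named after their values were seen. Alternatives were DESeq2 1.42.0 size factors, upper-quartile, plain library total and reference gene scaling, prior counts of 0.5 and 10, and minimums of 1 and 50 counts.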

Additional observations from a re-analysis of the deposited data

How the results depend on the processing

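All 8 genes were at least 2-fold and at least 16-fold higher under every scaling, prior count and minimum tried. Compared with TMM, the scaling of the ratio shifted on the log2 scale by 0.45 under plain library totals, by 0.35 when the reference genes set the scale, by -0.10 under upper-quartile scaling and by 0.02 under DESeq2 size factors. Genes with few counts in the 3-month library moved less, as the prior count weighs on them, and ODF1 had 12.31 under plain library totals, against 12.07 with TMM. The log2 ratio of ODF2, the smallest of the 8, was 4.60 with TMM, 5.05 under plain library totals and 4.50 under upper-quartile scaling. The share among all measured genes at least 16-fold higher lay between 6.86% and 8.24% over these scalings. The summed CPM ratio of 52.3 became 71.6 under plain library totals, 66.7 under reference gene scaling and 48.8 under upper-quartile scaling, each by the change of factor alone. It was 214 without ODF2, an alternative chosen after seeing the data. The median log2 ratio of 8.19 became 7.20 with a prior count of 10, since a larger prior pulls genes with few counts towards equal level. Ordered by counts without gene length, 2 of the 8 genes kept their place in the 9-month library. The main limits are the 0 to 34 counts of ODF1, ODF3, SMCP, ROPN1L and AKAP3 in the 3-month library and the lack of replicates. No paired analysis was possible because each age has 1 library.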

Other observations

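A gene beside SMCP also differed widely. In the RefSeq annotation of assembly ARS-UCD2.0 the nearest annotated gene to SMCP that does not overlap it is IVL, which encodes involucrin, a protein of the outer layers of the skin. IVL had 620 counts in the 9-month tubules, against 3 in the 3-month tubules, a log2 ratio of 6.87. It was named after its values were seen. Other nearest neighbours of the sperm tail genes differed less. GLE1, beside ODF2, had a log2 ratio of 0.93, NDUFA9, beside AKAP3, 0.64, CCNB3, beside AKAP4, 0.91, and OSBPL1A, beside CABYR, -0.20.

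Among the markers of rete testis and epididymis, the defensin gene DEFB119 stood at 115 CPM in the 9-month tubules, against 1.99 CPM in the 3-month tubules, a fold of 58.0 (45.3 to 75.4), while 4 of the 7 measured markers were at least 2-fold lower. Under plain library totals and under reference gene scaling 2 of the 7 were.

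Some further accessory genes of the tail, named after their values were seen, were as far apart as the 8. ODF4, another gene named for the outer dense fibres, had 1706 counts in the 9-month tubules, against 2 in the 3-month tubules, a fold of 787 (218 to 6505). FSCB, a fibrous sheath protein that binds CABYR, had 3693 counts in the 9-month tubules, against 1 in the 3-month tubules, a ratio of 3408 (611 to 134636). The septin gene SEPT12 of the annulus had 3172 counts in the 9-month tubules, against 3 in the 3-month tubules, a ratio of 976 (334 to 4734), while its relative SEPT4 had 6513 counts in the 9-month tubules, against 7097 in the 3-month tubules.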
